A study of Mus musculus with 6 samples.

Results

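The cytosolic ribosomal protein genes were followed in cells of mouse dorsal skin over 6 days of hair regrowth. A gene was taken as a member when its symbol was Rpl or Rps followed by digits and at most one letter a or x, or was Rplp0, Rplp1, Rplp2 or Rpsa, with symbols ending in -ps left out. Of 32285 genes in the deposited tables, 76 met this rule, 30 for the small and 46 for the large ribosomal subunit, and all 76 had UMIs (unique molecular identifiers, each standing for one captured RNA molecule) in each of the 6 libraries. Members were read as their share of all UMIs and as counts per 1000000 UMIs of the same cells (CPM). A UMI is counted once per molecule at its 3′ end whatever the length of the transcript, so levels were compared between genes without a length correction.

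All mice were wildtype FVB males aged postnatal day 55 to 57, whose dorsal skin was shaved and waxed to start hair regeneration. Skin was harvested at 0, 4 and 16 h and on days 2, 4 and 6 and digested with enzymes, and the cells of 2 mice, processed separately and then mixed in equal numbers, gave 1 single-cell RNA library per time point. With 1 library per time point there is no replicate check of a time point, and time point and library cannot be told apart. Libraries held 72634390 to 112370376 UMIs, and 50502 of 61031 barcodes were analysed, 6520 to 11032 per library, with 7 to 47 barcodes shared between any pair of libraries.

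The ribosome is built from ribosomal RNAs and the proteins these genes encode, in nearly equal numbers. Ribosomal protein messenger RNAs are among the most abundant in dividing cells, and many of them start with a short pyrimidine tract, the TOP motif (terminal oligopyrimidine), through which growth signals set their translation. In skin, basal keratinocytes and activated hair follicle stem cells make ribosomes for growth and division, whereas keratinocytes that move up and cornify turn to keratins and barrier proteins. Ribosome assembly itself depends on a separate group of nucleolar biogenesis factors, and mitochondria have ribosomal proteins of their own.

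The start of the gene was looked at first, since it carries the sequence these genes share. Of the 76 members, 56 were matched to a RefSeq start on GRCm38.p6, and 13 of them (23.2%) had a C followed by at least 4 pyrimidines at an annotated start, against 3.01% of 27025 genes. A pyrimidine run of at least 8 bases over the start was found for 18 members (32.1%) and for 6.30% of all genes. The letters CCGGAA, the core recognised by ETS family factors, stood on either strand within 250 bases before to 50 after the start in 31 members (55.4%) and in 16.7% of all genes. ATGGCG, the core of the YY1 motif, was found in 16 members (28.6%) and in 10.2% of all genes, and TATAAA, the TATA box, in 6 members (10.7%) and in 15.7% of all genes. RefSeq starts are not measured starts, and a match describes letters only. The windows below run from 10 bases before to 20 bases from the annotated start, on the strand of the gene, and pyrimidine runs of at least 5 bases over the start are in capitals. The first 6 show the tract in members of both subunits, Rps6 being the small-subunit protein phosphorylated by S6 kinase and Rplp2 a protein of the stalk that recruits translation factors. The last 3 are members whose levels set the 0 h and 2 d libraries apart further on. None of the 7 such members with a matched start had the tract at that start. Only runs over the annotated base were counted, and in the Rpl13a window a pyrimidine run lies a few bases past it. Most matched members lacked the tract at the annotated start too, 13 of 56 having it, so 7 members are too few to be set apart by it.
Rps6, chr4:86857348-86857377, minus strand: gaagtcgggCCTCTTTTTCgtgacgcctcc
Rps18, chr17:33955646-33955675, minus strand: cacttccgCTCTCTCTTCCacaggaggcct
Rpl38, chr11:114668570-114668599, plus strand: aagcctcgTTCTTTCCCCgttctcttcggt
Rplp2, chr7:141447641-141447670, plus strand: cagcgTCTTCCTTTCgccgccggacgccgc
Rpl15, chr14:18270967-18270996, minus strand: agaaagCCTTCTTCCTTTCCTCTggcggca
Rpl35, chr2:39005112-39005141, minus strand: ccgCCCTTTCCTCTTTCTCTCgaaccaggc
Rpl13a, chr7:45128726-45128755, minus strand: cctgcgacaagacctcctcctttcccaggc
Rpl5, chr5:107900518-107900547, plus strand: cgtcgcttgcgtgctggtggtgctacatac
Rps15, chr10:80292421-80292450, plus strand: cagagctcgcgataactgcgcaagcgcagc

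The members made up 112138081 of 458232948 UMIs, or 24.5%, so a large part of the molecules captured from these skin cells came from these genes. The 5 members with the most UMIs held 13.2% of all member UMIs and the first 10 held 23.8%. Rpl13 was highest at 8856 CPM over all cells, followed by Rps24 at 6295, Rps4x at 5748 and Rps20 at 5705 CPM. Rpl29 was lowest at 429.7 CPM, and Rpl31 at 755 CPM, Rpl23a at 1162 CPM and Rpl36a at 1235 CPM were also among the 5 lowest. Genes whose products occur in equal number in the ribosome thus differed in UMIs by more than an order of magnitude. Small-subunit members held between 43.2% and 44.3% of member UMIs in every library, a narrow range beside that of the single members. Levels are uncertain for members with many near-identical processed pseudogenes, because reads that match several places can be dropped. At least 10 pseudogene copies matched the transcript end of 13 members, among them Rpl7a (46), Rps2 (41), Rpl17 (29), Rpl23a (24), Rpl29 (18), Rps12 (16), Rpl35a (14), Rpl30 (13), Rpl10 (11), Rpl9 (11), Rps27a (10) and Rps6 (10).

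The share over all cells was lowest in the 4 h library. In the order of the time points it read 26.1%, 19.3%, 22.9%, 27.9%, 23.7% and 26.7%, with a 95% exact binomial interval at 4 h of 19.27% to 19.29% that covers counting error only. Per cell, the mean number of member UMIs was 2666 at 0 h and 1770 at 4 h, while the mean number of all other UMIs was 7549 at 0 h and 7411 at 4 h. The lower share at 4 h thus went with fewer member UMIs and a similar number of other UMIs. The later libraries held 2722, 2527, 1643 and 2221 member UMIs per cell, and the low count of the 4 d library came with fewer other UMIs as well (5275 per cell). Fewer molecules per cell and a change in what else was captured cannot be told apart from a share alone.

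Other measures moved with the libraries. The share of a list of 54 ribosome biogenesis factors was 0.386% at 0 h and 1.14% at 4 h, the highest of the 6 libraries, and that of the 78 mitochondrial ribosomal protein genes was 0.353% and 0.712%. The share of 37 translation factors went from 3.61% to 3.22%. A list of genes induced by tissue dissociation held 2.88% of UMIs at 0 h and between 1.26% and 1.87% in the other libraries, mitochondrially encoded genes held 3.10% at 0 h and 2.60% at 4 h, and nuclear-retained RNAs 1.87% at 0 h and 0.904% at 4 h. Their part in the shares of the members was not tested.

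Cell types were rebuilt by clustering with the members, the other ribosomal and translation genes and cell cycle genes kept out, so no cell type rests on the genes described. Clusters were named from fixed markers and each name means "like" that type. IFE.SB are interfollicular epidermal suprabasal keratinocytes, uHF.B and uHF.SB upper hair follicle basal and suprabasal cells, OB the outer bulge with its stem cells and OB1 to OB3 its subclusters, SG the sebaceous gland and IB the inner bulge. Cluster 0 of 16828 cells, called IFE cluster 0, had all 8 interfollicular basal markers raised, among them Krt5 and Krt14, but it keeps its number because its leading genes held 1 of those markers and 2 of the upper follicle list. All markers of the list were raised in T cells (9 of 9), Langerhans cells (7 of 7), melanocytes (7 of 7), SG (9 of 9) and each of OB1, OB2 and OB3 (10 of 10), and 7 and 8 of 10 in the 2 clusters joined as uHF.B and 5 of 6 in uHF.SB. A further pair of clusters goes by their genes, the Col14a1 cluster and the hair follicle Krt1 and Krt10 cluster. The Icos and Il7r cluster, also named by genes, had 9 of 9 T cell markers raised and was kept apart from T cells. The Cpa4 and Itga2 cluster had 6 of 10 OB1 markers raised and was kept apart from OB.

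The share was lower at 4 h than at 0 h in 13 of the 14 cell types with at least 20 cells in both libraries. For these counts OB was taken as OB1, OB2 and OB3, and IFE.SB as its spinous and granular cells. In IFE cluster 0 the share was 27.2%, 20.02%, 23.8%, 27.7%, 24.2% and 28.0% in the 6 libraries. In OB, the compartment that holds the hair follicle stem cells, it was 23.1%, 17.3%, 23.2%, 27.9%, 23.4% and 25.8% in the same order. These values leave out the Cpa4 and Itga2 cluster, which held 0 cells at 0 h and 248 at 4 h, beside 373 of OB at 4 h. The share of that cluster was 15.03% at 4 h, 22.86% at 16 h and 25.19% at 6 d, each below that of OB. The ratio of the share at 4 h to that at 0 h ranged from 0.590 in melanocytes, from 23.8% to 14.0% on 30 and 89 cells, to 1.18 in IB, from 16.1% on 21 cells to 19.0%. IB was the exception. Of the 13 cell types present in all 6 libraries 11 had their lowest share at 4 h, and the other 2, the Col14a1 cluster and uHF.SB, had it at 4 d. The 2 d library was the highest for 6 cell types, the 6 d library for 5 and the 0 h library for 2.

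The same direction was present when the conditions of the count were changed. With cells of 3000 to 8000 UMIs only, 11 of 11 cell types were lower at 4 h than at 0 h, and 9 of 11 were lowest at 4 h. Among non-cycling cells 13 of 13 were lower, and 12 of 13 lowest, at 4 h. IB, the exception above, had too few cells at 0 h under both conditions and was not part of these counts. With the median share over cells, where IB stayed in at a ratio of 1.31, 13 of 14 cell types were lower. The biogenesis factors stood at 2.08 to 3.35 times their 0 h share in the cell types other than T cells, Langerhans cells and melanocytes, where the ratio was 0.881, 0.921 and 1.45. In IB their share (3.31 times) and that of the members (1.18 times) were both higher at 4 h. These are values of single libraries, and they show no test between time points.

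**Figure D1:**
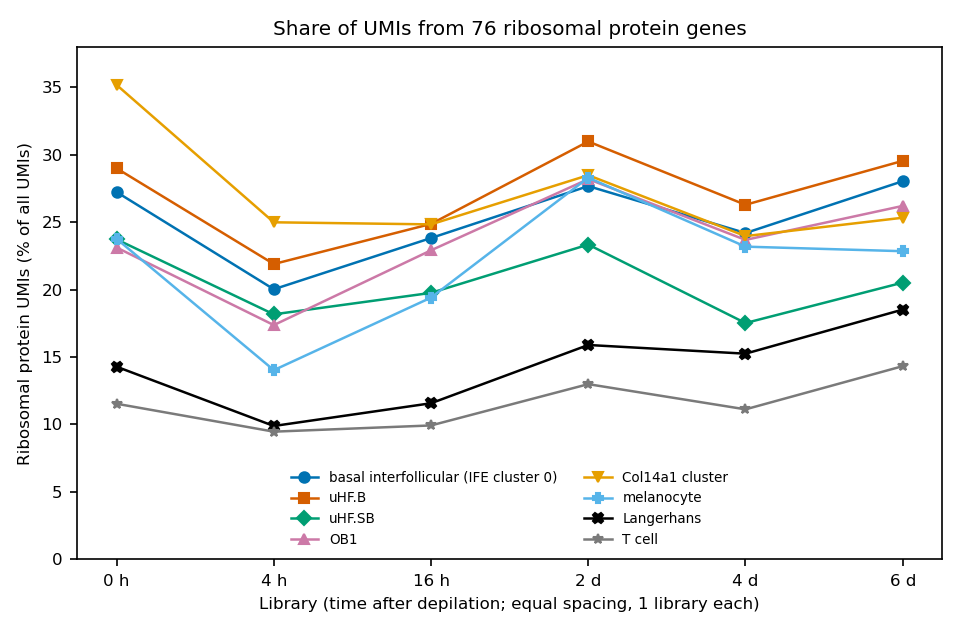
Share of all UMIs that came from the 76 ribosomal protein genes (y axis, percent) in the library of each time point (x axis, equal spacing), with one line per cell type for 8 cell types and no error bars, since each point is 1 library. The lines of IFE cluster 0, uHF.B, OB1, melanocytes, Langerhans cells and T cells are lowest at 4 h, those of uHF.SB and the Col14a1 cluster at 4 d, and T cells lie below all others in every library.

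A single decline common to all members does not describe the 4 h library. In IFE cluster 0, 67 of 76 members were lower at 4 h than at 0 h, with a median log2 difference of -0.41, beside a median of 0.38 over 3262 genes, of which 37.3% were lower. At least 1.5-fold lower were 22 of 76 members, against 20.8% of all genes tested, and at least 1.5-fold higher were 0 members, against 41.8% of all genes. In melanocytes 50 of 76 members were at least 1.5-fold lower, against 22.2% of 3927 genes. The number of members lower at 4 h ran from 59 in T cells to 75 in the hair follicle Krt1 and Krt10 cluster, and the median log2 difference from -0.28 in T cells to -0.78 in melanocytes, while the median over all genes was above 0 in all 12 cell types.

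Of the 76 members, 49 were lower at 4 h in all 12 cell types and 66 in at least 10. Of all genes tested, 34.8% to 48.2% were lower in single cell types. How many of them were lower in all 12 was not counted, and the cell types share the same libraries. The lowest medians over cell types were those of Rpl13a (-1.54 on the log2 scale), Rpl23a (-1.51), Rps15 (-1.44), Rpl5 (-1.40) and Rps12 (-1.19). Rpl5 is one of the proteins that bind the smallest ribosomal RNA and, when free, the p53 regulator Mdm2. There were 6 members with a median above 0: Rps2 (0.17), Rpl8 (0.16), Rpl41 (0.16), Rpl29 (0.14), Rpl35 (0.07) and Rplp0 (0.04). Rplp0, the anchor of the stalk, was lower at 4 h in 6 of 12 cell types, so its direction was split.

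From 4 h to 2 d the members moved up. In IFE cluster 0, 66 of 76 were higher at 2 d than at 4 h, with a median log2 difference of 0.43 beside -0.34 over all genes, and in OB1 72 of 76 were higher with a median of 0.69. Of all genes tested, 63.6% were lower at 2 d than at 4 h in IFE cluster 0 and 55.3% in OB1. At least 1.5-fold higher were 26 members in IFE cluster 0, against 18.1% of genes, and 47 in OB1, against 24.1%. Rpl23a had the highest rise in each of these cell types and Rpl29 the largest fall. Between 0 h and 6 d the members were near even over all cells, with a median log2 difference of 0.07 beside 0.05 over all genes. That median covered a range from -1.71 for Rpl5 to 0.96 for Rpl36, and 12 members were at least 1.5-fold lower and 11 at least 1.5-fold higher, against 10.6% and 10.8% of genes.

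**Figure D2:**
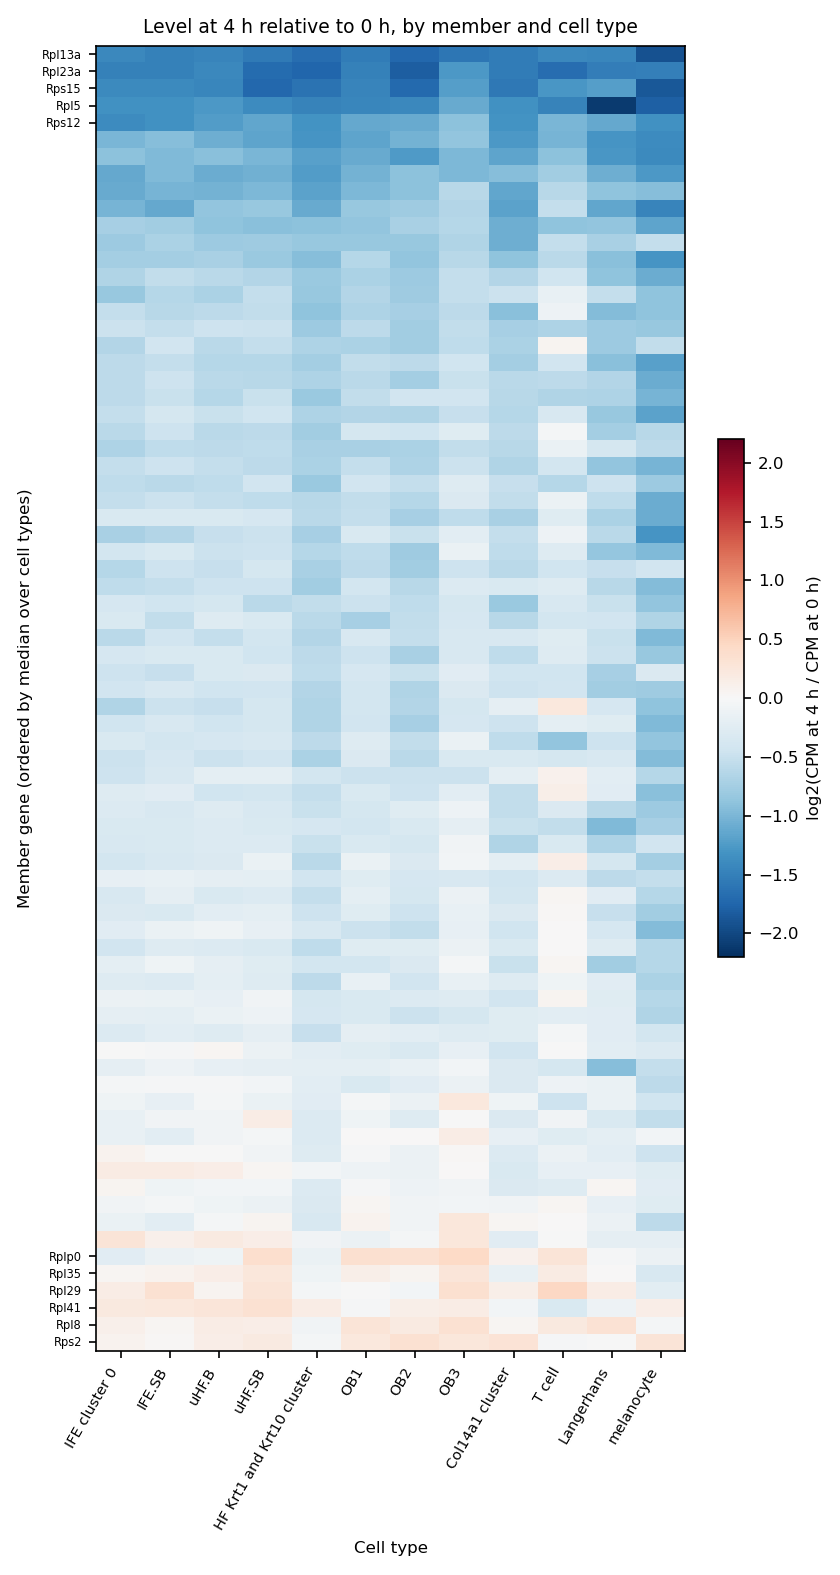
Heat map of the log2 ratio of CPM in the 4 h library to CPM in the 0 h library, with the 76 members as rows, ordered by their median and labelled for 11 of them, and 12 cell types as columns; blue is lower and red higher at 4 h. Of the members, 49 are lower in all 12 cell types, with Rpl13a, Rpl23a, Rps15, Rpl5 and Rps12 the farthest down and Rps2, Rpl8 and Rpl41 with medians just above 0. In single cell types 34.8% to 48.2% of all genes tested are lower.

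Over the full time course no member passed. A smooth curve over hours was fitted to summed counts per library with edgeR's quasi-likelihood F test, with 2 residual degrees of freedom, and 0 of 76 members had a Benjamini-Hochberg adjusted p under 0.05 in any of 13 cell types. The share of all genes called was 0% in 7 cell types, 0.00961% in the hair follicle Krt1 and Krt10 cluster, 0.0161% in Langerhans cells, 0.0559% in T cells, 1.02% in OB1, 2.93% in the Col14a1 cluster and 3.44% in melanocytes. At an unadjusted p under 0.05 stood 2 members in Langerhans cells, Rpl29 and Rpl35, and 0 in the other 12 cell types, and DESeq2's likelihood ratio test gave 0 members in each. A change in a single library adds to the spread around such a curve. On a log2 scale of hours edgeR called 39 members in melanocytes, 27 higher and 12 lower, against 14.8% of all genes. Without the 0 h library it called 19 in OB2, against 5.81% of genes, 13 in OB1, against 13.6%, and 12 in OB, against 11%, each with 1 residual degree of freedom.

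A set of 10 members had another pattern, noticed after their values were seen and given as a description. They were higher in both the 0 h and the 2 d library than in each of the other 4 libraries, and this was so in each of 12 cell types. Over all cells Rpl5 read 2584 and 2685 CPM in the 0 h and 2 d libraries, and 1021, 982.4, 783.6 and 787.9 CPM in the other libraries in order of time. Rps15, a small-subunit protein, read 2423 and 3022 CPM in the first pair and 904.8, 1136, 779.8 and 816 CPM in the others. The ratios of means between the 0 h and 2 d libraries and the other 4 were 2.95 and 2.99. That the groups of libraries did not overlap is what the set was chosen for and adds nothing to it.

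Rpl13a (ratio of means 2.84), Rpl23a (2.99), Rps12 (2.26), Rpl12 (2.04), Rpl10 (1.91), Rps25 (1.78), Rpl17 (1.70) and Rps14 (1.69) complete the set. Rps12 read 5653 CPM at 0 h and 7098 at 2 d, and 2262 to 3375 CPM elsewhere. Of 1850 genes with at least 50 CPM in a library of each cell type, 13 (0.703%) had this pattern in all 12 cell types, the other 3 being Rack1, mt-Co3 and mt-Nd1, and 7 genes (0.378%) had the opposite one, with 0 members among them. At least 10 pseudogene copies were found for 4 of the 10 members and for 9 of the other 66. Whether the 0 h and 2 d libraries shared a run or a handling step is not given in the sources used here, and the part of a batch or of the pseudogene copies in this pattern was not tested.

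The 10 members weigh on the time course of the share. Without them the share over all cells was 22.8%, 17.8%, 21.1%, 24.2%, 22.3% and 25.1% in the 6 libraries, so the highest library was then 6 d and no longer 2 d. The share was again lower at 4 h than at 0 h in 13 of 14 cell types, at ratios of 0.622 to 1.253, and lowest at 4 h in 11 of 13. The 6 d library was then the highest for 8 of those 13, the 2 d and the 0 h library for 2 each and the 16 h library for OB3. The low share at 4 h thus stood with and without these members. They were picked as high in the 0 h and 2 d libraries, so leaving them out lowers those libraries most by construction. The change of the highest library is therefore no result of its own.

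**Figure D3:**
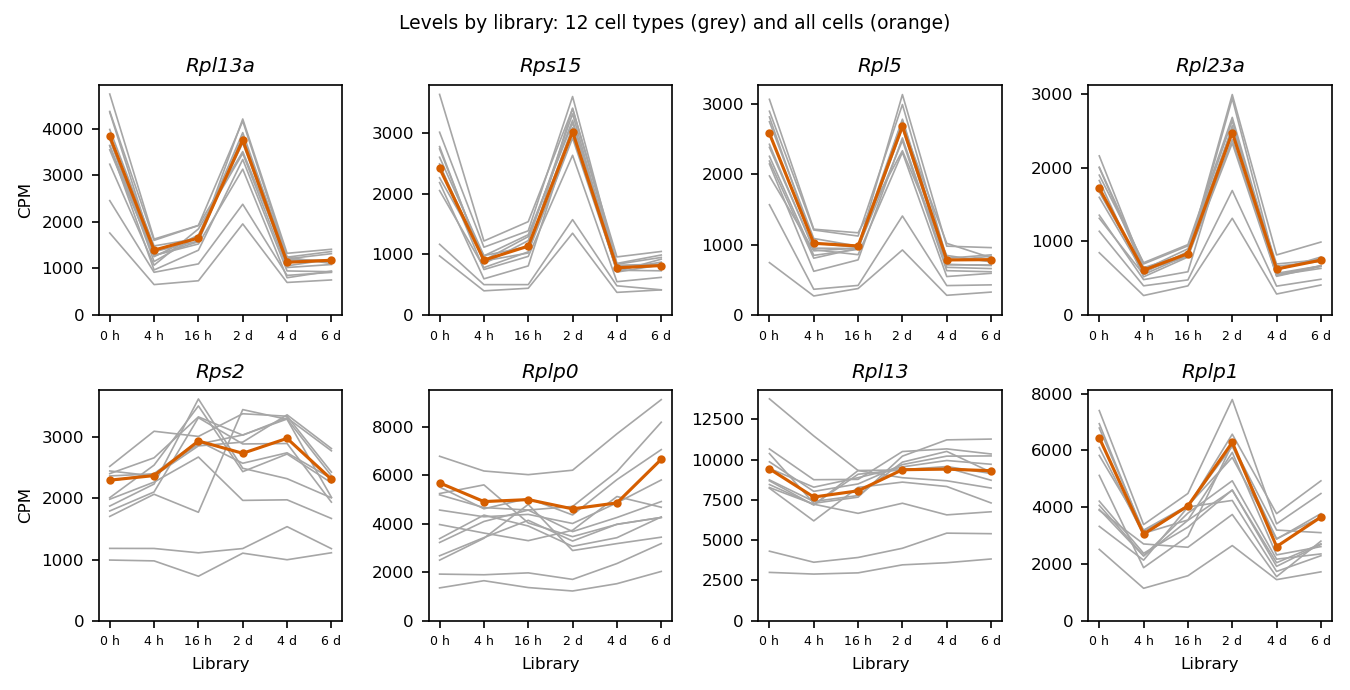
CPM (y axis, from 0) by library (x axis) of 4 members with the 0 h and 2 d pattern in the upper row and of Rps2, Rplp0, Rpl13 and Rplp1 in the lower row; grey lines are 12 cell types and the orange line all cells. Rpl5 reads 2584 CPM at 0 h and 2685 at 2 d and at most 1021 CPM in the other 4 libraries, while Rplp1 reads 6443 CPM at 0 h and 2608 CPM at 4 d.

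Members with a known special place did not move as one. Rplp0 and Rplp1 belong to the same stalk, yet Rplp0 read 5693, 4920, 5002, 4618, 4864 and 6668 CPM from 0 h to 6 d while Rplp1 read 6443, 3049, 4042, 6278, 2608 and 3648 CPM. Rplp1 was high at 0 h and 2 d in 11 of 12 cell types, and Rplp0 was highest at 6 d. Rpl11, the partner of Rpl5 in binding the smallest ribosomal RNA and Mdm2, read 3774, 3728, 4123, 4178, 4458 and 3844 CPM, a narrow range beside that of Rpl5. Rpsa, also known as the laminin receptor precursor, ran between 4291 CPM at 4 h and 5550 at 4 d. Rps4x, encoded on the X chromosome, ran between 4103 CPM at 4 h and 6607 at 6 d, and Rps27a, made as a fusion with ubiquitin, between 4730 CPM at 4 h and 6366 at 2 d. Rps6 was 2090 CPM at 0 h and 2127 at 2 d, and lowest at 6 d with 1317. Rpl10, which joins the large subunit late, belonged to the set of 10 with 2335 and 2614 CPM at 0 h and 2 d against 1138 to 1419 CPM elsewhere. Rpl41, whose product is a very short peptide, was lowest at 0 h with 2561 CPM and highest at 2 d with 4599.

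The length of the coding sequence ordered part of the differences between libraries, a pattern again noticed after the values were seen. Coding lengths ran from 75 bases (Rpl41) to 1257 bases, and 25 members had at most 400 bases. At 6 d the Spearman correlation over the 76 members between coding length and the log2 level relative to the mean of the 6 libraries was -0.51 over all cells, and -0.57 to -0.46 in 12 cell types. Over 1799 genes of all kinds it was -0.14. Shorter members stood 0.47 above their own 6-library mean at 6 d in the median and longer ones 0.04, and 17 of the 25 shorter members were highest in the 6 d library, against 7 of the 51 longer ones. Rps27 (log2 0.79 above its mean), Rps28 (0.71), Rpl39 (0.70), Rpl37a (0.70) and Rpl37 (0.70) lay farthest up. Rps27 read 1907, 1533, 1927, 1650, 1815 and 3394 CPM, and Rpl37 read 2389, 2099, 2634, 2460, 2262 and 4215 CPM from 0 h to 6 d, so the 6 d library stood apart for both. In the libraries from 0 h to 4 d the correlation was 0.31, 0.30, -0.29, 0.07 and 0.27. Each level is relative to a mean that holds all 6 libraries. A high 6 d library thus lowers the relative levels of the others, and these correlations are not independent of that at 6 d. The points share the library and its depth, and a part of the library preparation in the pattern was not tested.

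**Figure D4:**
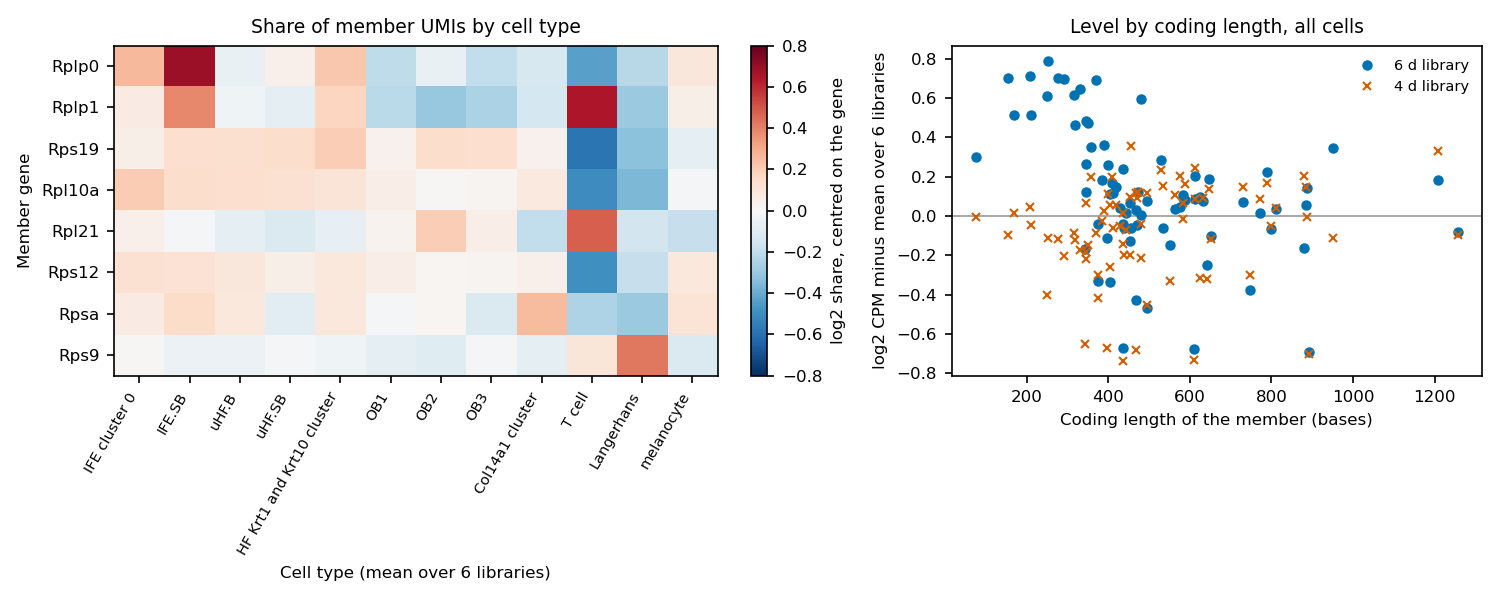
Left, share of 8 members, among the 10 that vary most between cell types of the 38 with more UMIs than the median, in all member UMIs by cell type (mean over 6 libraries), as log2 centred on each gene and shown by colour; right, log2 CPM in the 4 d and 6 d libraries relative to the mean of the 6 libraries (y axis) against coding length in bases (x axis), one point per member. T cells stand out on the left with little Rplp0 and much Rplp1, and on the right the shorter members sit above the longer ones at 6 d (Spearman correlation -0.51) but not at 4 d (0.27). Both are relative to the same mean, so these correlations are not independent.

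The make-up of the member pool varied between libraries and between cell types. The SD of the log2 share of a member in all member UMIs had a median over the 76 members of 0.189 across libraries and 0.118 across cell types. Among the 38 members above the median in UMIs, Rps12 varied most between libraries, from 0.962% of member UMIs at 4 d to 2.55% at 2 d, followed by Rplp1 (1.10% to 2.47%), Rpl41 (0.981% to 1.93%) and Rpl17. Between cell types Rplp0 and Rplp1 of the stalk varied most among the same 38 members, and over all 76 members Rpl10 had the largest SD (0.346). Rplp0 took 1.34% of member UMIs in T cells and 2.91% in IFE.SB, while Rplp1 took 1.30% in OB2 and 2.51% in T cells. Rps19, whose human counterpart is mutated in Diamond-Blackfan anaemia, ranged from 1.19% in T cells to 2.05% in the hair follicle Krt1 and Krt10 cluster, and Rpl10a from 0.826% in T cells to 1.35% in IFE cluster 0.

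Cell types were compared within libraries. For the share, 14 pairs of cell types were compared by an exact two-sided sign-flip permutation test over the libraries, in which 6 libraries allow no p below 0.03125 and 5 none below 0.0625. For single members, counts were summed per library and cell type and tested across all genes with edgeR's quasi-likelihood test with the library as a block and TMM scaling (trimmed mean of M values), so that a log2 change is relative to the bulk of genes. Where counts were scaled to totals only, the median of all genes shifted by up to 0.57 on the log2 scale, and the counts that turned with it are given beside the others. Without the library as a block 73 members were called between T cells and IFE cluster 0, against 57.5% of all genes, and 0 to 27 in each of the other 13 pairs, against 0.693% to 41.6%. The 6 libraries are the units, each the cells of 2 mice at another time point. The p-values measure how the difference between cell types varied from library to library. That spread mixes time point, library and mice and is not one between replicates.

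T cells, the cluster led by Ctla2a, Cd3g and Trdc, had the lowest share. It was 11.5%, 9.46%, 9.92%, 13.0%, 11.1% and 14.3% from 0 h to 6 d, below that of IFE cluster 0 in all 6 libraries, with a difference of -13.6 ± 1.75 percentage points (SD, n = 6 libraries; exact permutation p = 0.03125, adjusted over 14 pairs 0.0547). In edgeR's quasi-likelihood test with Benjamini-Hochberg adjustment 76 of 76 members were lower in T cells, where 33.5% of all genes were lower, with a median log2 change of -1.47 over the members and -0.17 over all genes. Rpl10a fell from 3420 to 956 CPM (log2 -2.14 ± 0.13 SE, adjusted p = 1.7e-09), Rplp0 from 5409 to 1524 CPM (-2.13 ± 0.12, adjusted p = 8.2e-10) and Rps19 from 4616 to 1382 CPM (-2.07 ± 0.13, adjusted p = 4.2e-09). Rps12 (-2.05) and Rpl36a (-1.96) followed. In single libraries Rplp0 read between 1223 and 2031 CPM in T cells and between 4367 and 7067 CPM in IFE cluster 0, with no overlap. Rplp1, the other stalk protein, fell less, from 4259 to 2877 CPM (-0.87 ± 0.13). T cells had fewer UMIs, with medians of 1999 to 2692 per cell against 6075 to 11000 in IFE cluster 0. Translation factors went the same way, 30 of 37 lower and 2 higher, as did 61 of 78 mitochondrial ribosomal protein genes and 30 of 54 biogenesis factors.

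Langerhans cells, the dendritic cells of the epidermis, stood above T cells in all 6 libraries, by 2.68 ± 1.46 percentage points (SD; exact permutation p = 0.03125, adjusted 0.0547). Their share was 14.3%, 9.88%, 11.6%, 15.9%, 15.2% and 18.5% from 0 h to 6 d. By edgeR's quasi-likelihood test 65 members were higher and 2 lower in Langerhans cells, where 25.4% of all genes were higher and 26.4% lower. Rps25 rose from 770 to 1235 CPM (log2 0.83 ± 0.11 SE, adjusted p = 3.6e-06), and Rpl12 (0.78), Rpl26 (0.76), Rps12 (0.76) and Rps9 (0.75) followed. Those that fell were Rplp1, from 2877 to 1839 CPM (-0.51 ± 0.12, adjusted p = 0.0018), and Rpl13a, from 1435 to 1092 CPM (-0.26 ± 0.10, adjusted p = 0.0449).

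Suprabasal cells of the upper follicle, taken as uHF.SB, had a lower share than its basal cells. This did not extend to the hair follicle Krt1 and Krt10 cluster, which had 7 of 9 IFE.SB markers raised. Its share was 28.9%, 19.0%, 21.8%, 30.5%, 28.1% and 33.1% from 0 h to 6 d, and it was not tested against uHF.B. The share of uHF.B was 29.0%, 21.9%, 24.9%, 31.0%, 26.3% and 29.5% from 0 h to 6 d and that of uHF.SB 23.7%, 18.2%, 19.8%, 23.3%, 17.5% and 20.5%, lower in 6 of 6 libraries, with a difference of -6.60 ± 2.19 percentage points (SD; exact permutation p = 0.03125, adjusted 0.0547). By edgeR's quasi-likelihood test 75 of 76 members were lower, against 29.2% of all genes, with a median log2 change of -0.34. Rpsa fell from 5522 to 3689 CPM (-0.53 ± 0.05 SE, adjusted p = 6.8e-07), from 4764 to 6057 CPM in the single libraries of uHF.B to 3205 to 4158 CPM in those of uHF.SB. Rpl36a (-0.51), Rpl28 (-0.49) and Rpl3 (-0.48) were among the next. Rpl23a was the member that did not pass, at 1227 CPM in uHF.SB and 1274 in uHF.B. The biogenesis factors fell by more, 49 of 54 lower with a median log2 change of -0.70, and 28 of 37 translation factors and 42 of 78 mitochondrial ribosomal protein genes were lower.

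The same step in the epidermis between the follicles did not give that picture. The share of IFE.SB was 24.5%, 18.5%, 22.4%, 29.2%, 25.4% and 26.4% from 0 h to 6 d, lower than that of IFE cluster 0 in 4 of 6 libraries, with a difference of -0.78 ± 1.71 percentage points (SD; exact permutation p = 0.25). In edgeR's quasi-likelihood test 22 members were higher and 0 lower, against 29.7% and 33.1% of all genes, but without TMM 3 were higher and 21 lower, against 21.3% and 45.8%, so the direction rests on the scaling. Rplp0 was the farthest up, from 5409 to 7013 CPM (log2 0.58 ± 0.06 SE, adjusted p = 3.9e-05), with 6033 to 9133 CPM in single libraries and higher in 6 of 6. Rplp1 (0.45), Rps29 (0.44), Rpl31 (0.32) and Rpl23a (0.32) followed. IFE.SB joins cells at different stages, and split after the values were seen, its spinous cells had 30.5%, 19.8%, 24.1%, 29.7%, 26.2% and 32.1% and its granular cells 18.6%, 16.5%, 19.2%, 28.4%, 24.3% and 19.9%. Granular cells had median UMI counts of 24425 to 39229. Leaving out the 4 h library raised the count of members called from 22 to 56, and leaving out 16 h or 4 d lowered it to 10 or 5, where 64.3%, 55.4% and 58.8% of genes were called in either direction.

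Among basal cells, uHF.B had a higher share than IFE cluster 0 in 6 of 6 libraries, by 1.93 ± 0.765 percentage points (SD; exact permutation p = 0.03125, adjusted 0.0547). Relative to other genes this spread thinly over the members. With edgeR's quasi-likelihood test 1 member was higher and 2 were lower, against 16.3% and 20.1% of genes, and without TMM 40 were higher and 1 lower, against 23.3% and 14.6%. The member that rose was Rplp2, from 1995 to 2401 CPM (log2 0.15 ± 0.05 SE, adjusted p = 0.0436). Rplp0 fell from 5409 to 4658 CPM (-0.33 ± 0.05, adjusted p = 4.2e-04) and Rpl11 from 4312 to 4159 CPM (-0.17 ± 0.05, adjusted p = 0.0168). With 16 h, 4 d or 6 d left out, 1 member was called, against 27.5% to 28.1% of genes in either direction.

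The outer bulge stood below uHF.B in 6 of 6 libraries, with a difference of -3.65 ± 1.48 percentage points (SD; exact permutation p = 0.03125, adjusted 0.0547). Of the 76 members 73 were lower in OB by edgeR's quasi-likelihood test, against 22.8% of genes, with Rplp1 (-0.59), Rpl28 (-0.51), Rplp0 (-0.49) and Rplp2 (-0.49) the farthest down. Without TMM 53 were lower, against 15.3% of genes. Rpl28 read 3861 CPM in OB and 4925 in uHF.B. The biogenesis factors went with them, 44 of 54 lower, as did 48 of 78 mitochondrial ribosomal protein genes. Against IFE cluster 0 the share of OB was lower in 5 of 6 libraries, at a difference of -1.72 percentage points (exact permutation p = 0.0625, adjusted 0.0795). In edgeR's quasi-likelihood test 70 members were lower, against 23.3% of genes, and 10 without TMM, against 12.4%, with 0 higher, against 32%. Rplp0 was again farthest down, from 5409 to 3698 CPM (log2 -0.81 ± 0.10 SE, adjusted p = 2.1e-04), with 2749 to 4352 CPM in the single libraries of OB and all of them below the 4367 to 7067 CPM of IFE cluster 0. Rplp1 (-0.69), Rpl28 (-0.55) and Rpl10a (-0.54) followed. Median UMIs per cell were 4394.5 to 6306.5 in OB.

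Within the outer bulge the differences were small. OB2, the subcluster with Krt15 and Fgf18 among its markers, had a higher share than OB1 in 6 of 6 libraries, by 0.813 ± 0.492 percentage points (SD; exact permutation p = 0.03125, adjusted 0.0547). The same edgeR test called 19 members higher and 0 lower, against 9.6% and 11.2% of genes, and without TMM 4 were higher, against 7.67%. The calls were led by Rpl21 (log2 0.29), Rplp0 (0.27), Rpl12 (0.25), Rpl27a (0.25) and Rps25 (0.24). Rpl21 read 3287 CPM in OB1 and 3845 in OB2. OB3 was lower than OB1 in 5 of 6 libraries, at a difference of -1.91 percentage points (exact permutation p = 0.0938, adjusted 0.109), with 22 members lower and 0 higher, against 7.56% and 6.31% of genes, and without TMM 7 lower and 0 higher, against 6.46% and 7.23%. Rps28 (-0.33), Rpl39 (-0.32), Rps21 (-0.30), Rpsa (-0.28) and Rps27 (-0.28) led. These counts rest on single libraries, since OB2 had 6, 8 and 4 called members without 2 d, 4 d and 6 d, against 16.5%, 17.4% and 14.5% of genes in either direction, and OB3 had 5 without 0 h, 5 without 2 d, 6 without 4 d and 3 without 6 d, against 9.82% to 12.3%.

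Sebaceous gland cells and melanocytes were also set against IFE cluster 0. SG, present with enough cells in 5 libraries, had shares of 20.1%, 22.0%, 25.3%, 22.6% and 24.7% from 4 h to 6 d, with a difference of -1.81 percentage points (exact permutation p = 0.125). With edgeR's quasi-likelihood test 54 members were lower and 0 higher, against 28.9% and 25.3% of genes, and without TMM 16 were lower and 2 higher, against 21.8% and 33.2%. Rps27 fell from 2207 to 1576 CPM (log2 -0.69 ± 0.09 SE, adjusted p = 1.9e-04), followed by Rplp0 (-0.63), Rpl21 (-0.62), Rpl13 (-0.54) and Rps19 (-0.52). In the same cells 61 of 78 mitochondrial ribosomal protein genes rose, with a median log2 change of 0.61, and 0 fell. Melanocytes had a lower share in 5 of 6 libraries, at a difference of -3.25 percentage points (exact permutation p = 0.0625, adjusted 0.0795), and 75 members were lower, against 23.4% of genes, or 13 without TMM, against 13.7%. Rps20 fell from 5888 to 4010 CPM (-1.16 ± 0.17 SE, adjusted p = 2.0e-06), followed by Rpl28 (-1.15), Rpl22 (-1.11), Rps26 (-1.08) and Rpl21 (-1.06). These log2 values carry the TMM scaling and are larger than the CPM values alone give. The median log2 change over the members was -0.80 with TMM and -0.19 without. The one member that did not pass was Rpl38, at 1707 CPM in melanocytes and 1436 in IFE cluster 0. With the 16 h library left out, 45 members were called in melanocytes, against 34.4% of genes in either direction, and in SG 22 to 33 members were called when 16 h, 2 d or 6 d was left out (33, 24 and 22), against 47.4%, 45.1% and 45.6%.

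Cells with transcripts of cycling genes had a lower share than other cells of the same cluster. Cells were called cycling when they held at least 2 UMIs of 10 cell cycle genes, such as Mki67 and Top2a, after each cell was thinned to 2000 UMIs. In IFE cluster 0 the share was 22.7% against 28.8% at 0 h, 19.0% against 20.1% at 4 h and 24.7% against 29.6% at 6 d, lower in 6 of 6 libraries, with a difference of -3.81 ± 1.68 percentage points (SD; exact permutation p = 0.03125, adjusted 0.0547). In uHF.B the difference was -3.70 ± 1.45 percentage points in 6 of 6 libraries with the same p-values, and in OB -2.12 percentage points in 5 of 5 (exact permutation p = 0.0625, the smallest 5 libraries allow). The calls per member were as broad. In edgeR's quasi-likelihood test 76 members were lower in cycling IFE cluster 0, against 26.4% of genes, 75 in uHF.B, against 17.9%, and 43 in OB, against 2.98%, with 0 higher, against 5.42%, where without TMM 1 was lower, against 1.58%. The count in OB was 27 without the 0 h library, 10 without 2 d and 0 without 4 d or without 6 d, where 8.67%, 6.55%, 3.03% and 3.15% of genes were called in either direction.

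Rps27 led in both basal clusters. It read 1801 CPM in cycling and 2331 in other cells of IFE cluster 0 (log2 -0.48 ± 0.05 SE, adjusted p = 1.6e-07) and 2080 against 2578 CPM in uHF.B (-0.42 ± 0.05, adjusted p = 1.1e-07). Rps26 (-0.47), Rps18 (-0.43), Rpl37 (-0.42) and Rpl10a (-0.42) followed in IFE cluster 0, and Rpl10a (-0.41), Rps26 (-0.41), Rpl10 (-0.39) and Rpl17 (-0.39) in uHF.B. In OB Rps18 (-0.28), Rpl3 (-0.26), Rpl10a (-0.26) and Rpl30 (-0.26) were among those farthest down. The mean number of member UMIs per cell was not lower in cycling cells of IFE cluster 0, at 1616 to 3044 over the libraries against 1571 to 2680 in the others, and it was higher in cycling cells in 5 of 6 libraries, the exception being 0 h (2482 against 2494). Cycling cells had more UMIs in all, with medians of 6847 to 14137 against 6029.5 to 10350 in IFE cluster 0. Translation factors fell with the members in IFE cluster 0 (23 of 37 lower, 1 higher), as did biogenesis factors (25 of 54 lower, 3 higher), while mitochondrial ribosomal protein genes rose in 20 and fell in 4 of 78.

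**Figure D5:**
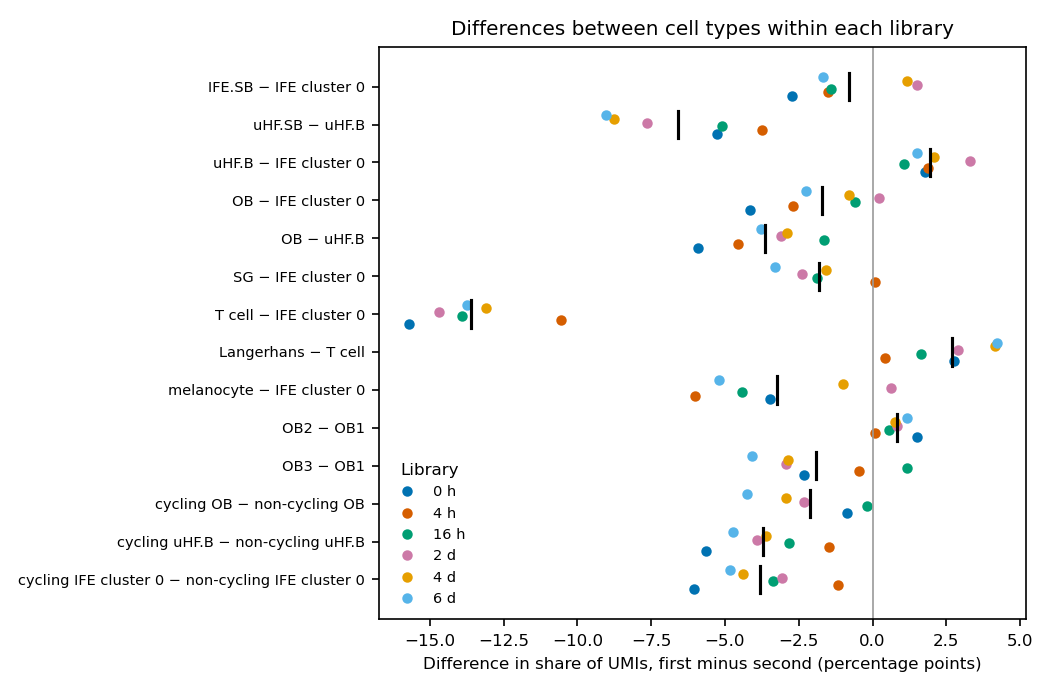
Difference in the share of UMIs from the members between pairs of cell types (x axis, percentage points, first minus second), one point per library and a bar at the mean, for 14 pairs. All points lie on the same side of 0 for T cells, uHF.SB against uHF.B, OB against uHF.B, uHF.B against IFE cluster 0, Langerhans against T cells, OB2 against OB1 and the 3 pairs of cycling and non-cycling cells.

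Ribosomal protein genes that the symbol rule misses, and the paralogues, were read the same way. Rps3a1 ran from 4693 CPM at 4 h to 5827 at 2 d and Fau, made as a fusion with a ubiquitin-like protein, from 2922 CPM at 4 h to 5178 at 6 d, both lowest at 4 h like most members. Rack1, a scaffold protein on the small subunit, read 2671 CPM at 0 h and 2474 at 2 d, and 1327 to 1572 CPM elsewhere. Rpl36al ran between 862 and 1255 CPM and was highest at 4 h, and Rpl7l1 read 39.5 CPM in the 0 h library and 145 in the 4 h library. Rpl22l1 ran from 619 to 1059 CPM and Rps27l, a target of p53, from 321 to 571 CPM. Rpl39l had 249 UMIs in all cells, 49 of them in T cells, Rpl3l had 13 and Rpl10l had 0.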

How the data were processed

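Single-cell RNA was measured in 6 libraries of mouse dorsal skin, 1 per time point. The deposited counts are UMIs per gene and barcode, made by the authors with the 10x Genomics Chromium 3′ kit and Cell Ranger 6.1.2 on mm10 per the labels. They are not normalized. Sequencing runs and read lengths are not given in the sources used here. The labels' 16 h was used as the time of that library.

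Of 61031 barcodes, 55177 had 500 to 7000 genes and at most 10% mitochondrial UMIs. From these, 4675 predicted doublets were removed (Scrublet in scanpy 1.11.5, highest scores at 0.8% per 1000 barcodes; its own threshold called 678), leaving 50502 cells. Cells were integrated and clustered with Seurat 5.3.0 (resolution 0.2, hair follicle cells 0.4), leaving out 753 genes, among them the members. Clusters were named from marker lists and types with at least 20 cells in a library were used.

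Summed counts were tested with edgeR 4.0.16 (glmQLFTest, robust, Benjamini-Hochberg adjusted p under 0.05) with the library as a block between cell types, and over a spline of hours with 3 degrees of freedom. Shares were compared by exact sign-flip permutation over 64 flips. DESeq2 1.42.0, other scalings and filters, another clustering seed and left-out libraries served as alternatives. Pseudogene copies were sought with blastn 2.17.0 among 13583 pseudogenes, at 95% identity or more over at least 150 of the last 300 transcript bases. Coding lengths came from the gene annotation. Scripts were tested on simulated data.

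Members named in a comparison were all called members, or the 5 with the largest change in each direction where more than 10 were called. Also named were the 5 with most and fewest UMIs, the 5 with the most variable share of member UMIs over libraries and over cell types, members with a known special place, and the genes the symbol rule misses; some of these, and an alternative that adds genes to the members, are not reported here. The members, gene lists and tests were chosen with earlier results of these data known. Intervals cover counting error only.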

Additional observations from a re-analysis of the deposited data

Results flagged for a closer look

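The symbol rule leaves out genes whose symbol ends in -ps, and 3 of them had UMIs in every library outside the main measurement. Rpl9-ps6 read 20.9 CPM over all cells, Rpl10-ps3 read 19.6 CPM and Rpl36a-ps1 read 9.67 CPM. All 3 were highest in the 0 h and 2 d libraries, Rpl9-ps6 at 37.4 and 24.1 CPM against 14.7 to 18.6 CPM in the other 4, Rpl10-ps3 at 31.0 and 22.8 against 13.0 to 18.4 CPM, and Rpl36a-ps1 at 13.5 and 18.8 against 3.19 to 9.07 CPM. They were picked out because their counts stood above the limit that a count of 0 allows. Their parent genes Rpl9, Rpl10 and Rpl36a are members, and how reads were divided between parent and copy was not tested.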

How the results depend on the processing

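With 1 library per time point, differences between time points have no replicate check. Depth limits the members with few UMIs in small cell types, such as Rpl29 with 37 UMIs in Langerhans cells at 0 h and 29 in melanocytes, where the upper bound of the 95% interval lies 37.8% and 43.6% above the value. No paired analysis was possible because each time point has 1 library whose replicate number only names it, which holds for the comparison of time points, while cell types were compared within libraries.

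Of 179 alternative values of the share difference between cell types, 167 were counted as unchanged, 3 turned direction, 2 moved in size and 7 came to pass the threshold. Where a library was left out, at most 5 libraries remained. The exact permutation test then allows no p below 0.0625, so those values could not pass whatever their size. IFE.SB minus IFE cluster 0 turned to 0.713 percentage points with the median cell and 1.90 with spinous cells alone, and SG minus IFE cluster 0 to 1.78 in cells of 3000 to 8000 UMIs, and it was -0.0770 with the median cell and -3.41 in non-cycling cells. In non-cycling cells, where 11 pairs entered the adjustment, 7 differences passed: uHF.SB minus uHF.B -8.02, uHF.B minus IFE cluster 0 2.31, OB minus IFE cluster 0 -2.51, OB minus uHF.B -4.81, T cell minus IFE cluster 0 -14.5, Langerhans minus T cell 2.58 and OB2 minus OB1 0.467. In the main comparison of 14 pairs none passed, the smallest adjusted p of the exact permutation test being 0.0547. The smallest unadjusted p is 0.03125 in both, so passing depends on the number of pairs as well as on the values.

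The share over all cells at 0 h was 26.9% without mitochondrial UMIs, 28.2% for the median cell, 28.3% at 3000 to 8000 UMIs, 26.7% in non-cycling cells, 26.0% over all barcodes and 26.2% with doublets. At 4 h these were 19.8%, 19.5%, 18.8% and 19.4%, and 19.3% with doublets. Without the 10 members of the 0 h and 2 d pattern, chosen after seeing the data like the spinous and granular split, the share was 22.8% at 0 h and 17.8% at 4 h.

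Over time, beside the share of all genes called in the same fit, the log2 hours scale called 2 members in uHF.SB (6.82%), 3 in OB (10.6%), 3 in OB1 (9.74%), 4 in OB3 (8.55%), 8 in the Col14a1 cluster (8.13%) and 39 in melanocytes (14.8%), and the rank scale 2 in melanocytes (10.8%). Leaving out 1 library gave 0 to 5 in uHF.SB (4.3% of genes in the fit with the most members), 0 to 12 in OB (11%), 0 to 13 in OB1 (13.6%), 0 to 19 in OB2 (5.81%), 0 to 9 in OB3 (5.56%), 0 to 3 in the Col14a1 cluster (5.74%), 0 to 9 in Langerhans cells (2.63%), 0 to 7 in melanocytes (2.08%) and 0 to 2 in T cells (4.03%). Those above 0 came without 0 h, and in T cells without 6 d.

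Between cell types, again with the share of all genes called in either direction, calls without the library block numbered 1 (IFE.SB minus IFE cluster 0, 35%), 5 (uHF.SB minus uHF.B, 24.2%), 0 (uHF.B minus IFE cluster 0, 9.36%), 5 (OB minus IFE cluster 0, 24.2%), 6 (OB minus uHF.B, 15.8%), 11 (SG, 36.8%), 17 (Langerhans minus T cell, 41.6%), 27 (melanocyte, 32.4%), 0 (OB2, 4.55%, OB3, 2.51%, cycling OB, 0.693%, and cycling uHF.B, 3.84%) and 1 (cycling IFE cluster 0, 5.82%). Without TMM they numbered 24 (IFE.SB, most lower, 67%), 41 (uHF.B minus IFE cluster 0, most higher, 37.9%), 10 (OB minus IFE cluster 0, 44.3%), 18 (SG, 55%), 13 (melanocyte, 42.5%), 4 (OB2, 21.5%), 7 (OB3, 13.7%) and 1 (cycling OB, 8%). TMM without members gave 38 in IFE.SB (62.9%) and 29 in SG (54%), and DESeq2's size factors gave 4 in uHF.B minus IFE cluster 0 (2 in each direction, 37%), 10 in OB3 (13.7%) and 18 in cycling OB (8.04%). DESeq2's Wald test gave 3 in uHF.B minus IFE cluster 0 (2 higher, 35.9%), 10 in OB2 (15.1%), 4 in OB3 (9.81%) and 0 in cycling OB (3.75%). No filter gave 7 in IFE.SB (38.8%) and 6 in OB2 (14.1%), no robust option 12 in OB3 (13.7%), another seed 6 in OB2 (23.7%), 12 in OB3 (13.5%) and 5 in cycling OB (21%), and non-cycling, spinous and granular cells 10 (60.1%), 67 (55.1%) and 9 (67.7%) in IFE.SB. The cause of these shifts was not tested.

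Leaving out 1 library gave 5 to 56 members in IFE.SB minus IFE cluster 0 (56 without 4 h, 10 without 16 h, 5 without 4 d), 1 to 3 in uHF.B minus IFE cluster 0, 22 to 59 in SG, 45 to 75 in melanocytes, 4 to 27 in OB2, 3 to 33 in OB3 and 0 to 45 in cycling OB. The shares of all genes called in those fits were 55.4% to 64.3%, 27.5% to 41.6%, 44.6% to 61.9%, 31% to 40.4%, 14.5% to 20.5%, 9.82% to 14.5% and 3.03% to 13.6%.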
